A study of Mus musculus with 6 samples.

Results

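Transcription factors that set tubule identity and tubule metabolism were compared in the renal cortex of mice with unilateral ischemia-reperfusion injury (UIRI), given either vehicle or bruceine A (BA, a quassinoid from Brucea javanica that the library labels spell Brucine A). The members were 8 genes taken by symbol from the deposited expression table, namely Hnf4a, Hnf4g, Ppara, Ppargc1a, Esrra, Nr1h4, Pax8 and Pax2. All 8 were found, each on 1 row, among the 19166 different symbols of the table. All animals were wild-type male C57BL/6J mice, aged 8 weeks when bought, in which the left kidney was made ischemic and the right one was taken out the day before the end. The UIRI group received vehicle and the UIRI + BA group 1 mg/kg BA, both once a day into the peritoneum, and cortex was collected on day 14. Each group held 3 libraries of polyadenylated RNA from mixed cortical tissue, described as separate biological replicates. Sham kidneys were not analysed here, so no value shows what the injury itself changed.

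Between 16510720 and 38124164 reads per library fell on genes. UIRI replicate 3 was the deepest library, 2.04 times the median of the other 5. On a list of 42 proximal tubule genes it also stood apart from its group, with a mean log2 value of 10.42 against 9.87 and 9.92 in UIRI replicates 1 and 2 and 10.55 to 10.87 in UIRI + BA. All 42 proximal tubule genes, all 10 thick limb genes and all 10 podocyte genes were in the table. Presence there needs only 10 reads over all libraries, and all 10 urothelium genes were present too. It therefore does not identify the tissue as cortex. Counts that move with UIRI replicate 3 are given with and without it. In bulk tissue, fewer cells of a type and less RNA in each cell cannot be told apart.

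HNF4A is the nuclear receptor that switches on and maintains the genes of the mature proximal tubule, and HNF4G is its close relative with nearly the same DNA-binding domain. PPARA is the lipid-sensing receptor of fatty acid oxidation, the main fuel pathway of the proximal tubule, and it binds DNA with a retinoid X receptor. PGC-1A, encoded by Ppargc1a, is a coactivator of PPARA and of ERRA (Esrra), and with ERRA it drives genes of mitochondrial respiration. FXR, encoded by Nr1h4, is the bile acid receptor, which is also abundant in renal tubules. PAX2 and PAX8 are paired-box factors that specify the nephric lineage in the embryo, and PAX8 persists in adult tubules.

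When limma was fitted over all genes, the unadjusted p of 5 members was below 0.05 (background 10.3% of all genes), and all 5 were higher with BA (background 5.67%). These were Hnf4a, Hnf4g, Ppara, Ppargc1a and Nr1h4. The values of Esrra, Pax8 and Pax2 did not pass that line. The UIRI and UIRI + BA libraries did not overlap for 3 of the 8, Hnf4a, Hnf4g and Nr1h4, against 14.4% of all genes (7.45% higher with BA and 6.96% lower). The fitted difference was above 0 for all 8 and for 48.9% of all genes, and the median of the 8 was 0.38 on the log2 scale against -0.01 over all genes. After Benjamini-Hochberg adjustment over the whole table, limma called 0 of the 8 and 0 of all genes (0%), although 1971 genes had an unadjusted p below 0.05. DESeq2 on the recovered reads called 1 of the 8, Hnf4a, where 1.49% of the genes with an adjusted p were called (1.14% as higher). edgeR's quasi-likelihood test gave an unadjusted p below 0.05 for 4 of the 8, against 9.93% of the genes it tested, and called 0 of all genes. Without UIRI replicate 3, limma called 4 of the 8 (Hnf4a, Hnf4g, Ppara and Ppargc1a), where 5.02% of all genes were called, and 6 of the 8 had an unadjusted p below 0.05 against 25.2% of all genes. The groups then did not overlap for 6 of the 8, against 45.4% of all genes, and without UIRI + BA replicate 2 for 5, against 25.3%. Leaving out UIRI replicate 1, UIRI replicate 2 or UIRI + BA replicate 1 reduced the 5 genes with an unadjusted p below 0.05 to 3, the genes that dropped out being Ppara and Ppargc1a. The share of all genes below that line was then 4.21%, 6.98% and 6.62%, in the same order.

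**Figure D1:**
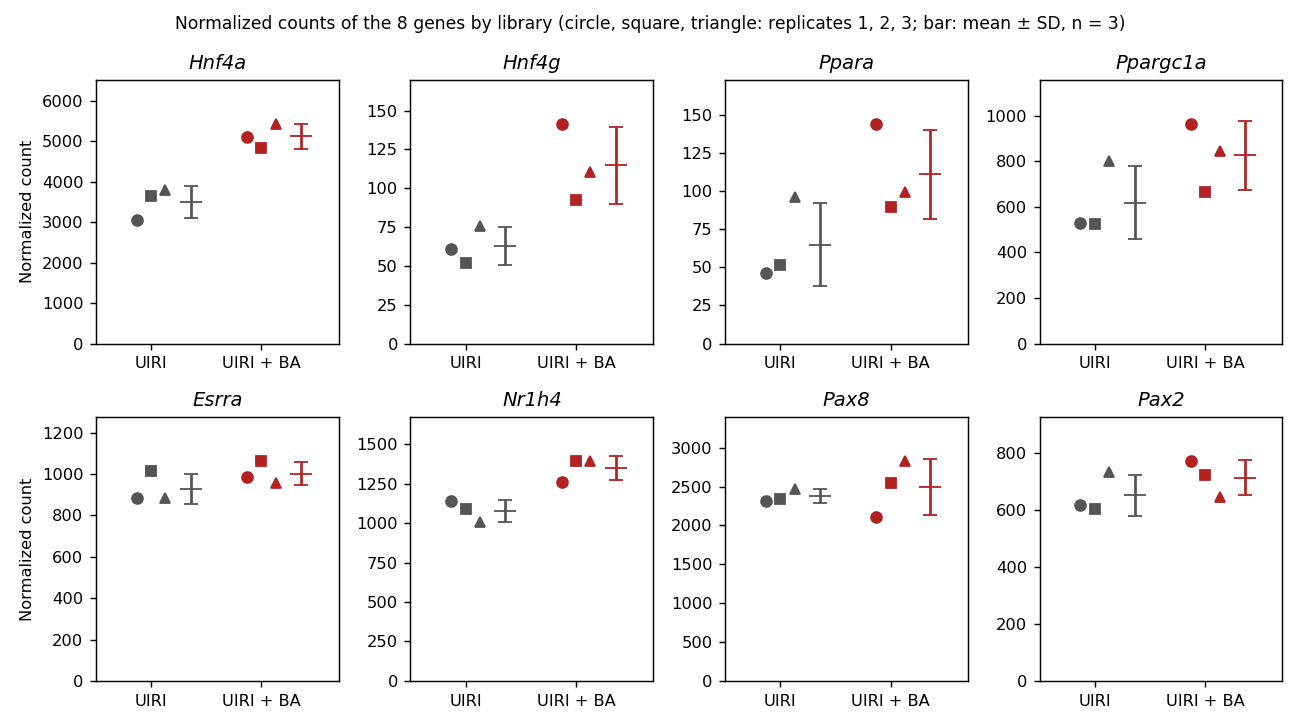
Normalized count (reads divided by the size factor of the library, vertical axis from 0) of each of the 8 genes in the 3 UIRI libraries (grey) and the 3 UIRI + BA libraries (red), with the mean ± SD of each group at the right. For Hnf4a, Hnf4g and Nr1h4 every red point lies above every grey one, whereas UIRI replicate 3 (grey triangle) lies among the red points for Ppara and Ppargc1a.

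Hnf4a was the most abundant of the 8 genes and the one with the smallest p. Its normalized count, the reads of a library divided by that library's size factor, was 3052, 3653 and 3797 in the vehicle libraries, in the order of their numbers, against 5096, 4819 and 5429 in the BA libraries. The highest UIRI library thus lay well below the lowest UIRI + BA library. The group means were 3501 ± 395 (SD, n = 3) and 5115 ± 305 (SD, n = 3), a log2 fold change of 0.55 (SE, the standard error, 0.10), or 1.47-fold. Counting error was small beside this difference, since each library held 2694 to 6934 reads of Hnf4a. The unadjusted p was 0.000289, the 22nd smallest of 19176 rows, and the adjusted p was 0.225 by limma. The lowest adjusted p among the limma alternatives was 0.0125, when UIRI replicate 3 was omitted, and the highest was 0.9995, when UIRI replicate 1 was. DESeq2 gave an adjusted p of 0.000940, and its adjusted p stayed below 0.05 when any one of the 6 libraries was left out (from 4.11e-07 to 0.0402). The exact two-sided permutation test gave p = 0.1, the smallest that 3 libraries against 3 allow.

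Hnf4g was measured at a far lower level, on 46 to 138 reads per library. Its normalized counts were 61.2, 51.7 and 75.6 with vehicle against 141.6, 92.6 and 110.6 with BA. Here too the groups did not overlap, and the difference was carried by all 3 treated libraries. The means were 62.8 ± 12 (SD, n = 3) and 114.9 ± 24.8 (SD, n = 3), a log2 fold change of 0.86 (SE 0.21, unadjusted p = 0.00264, adjusted p = 0.264 by limma). DESeq2 placed its adjusted p at 0.0585, just above the line. With each library omitted in turn the log2 fold change of Hnf4g ran from 0.70 to 1.00.

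RefSeq lists 2 start sites for Hnf4a on GRCm38.p6, 40298 bases apart on the plus strand of chromosome 2. The deposited counts are per gene and cannot separate transcripts from the 2 starts.

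Genes of the mature proximal tubule, many of them known targets of HNF4A, were mostly higher with BA. Of the 42 proximal tubule genes, 34 were higher at an unadjusted p below 0.05 and 0 were lower, where 5.67% of all genes were higher and 4.61% lower at that line. The median log2 fold change of the list was 0.68, against -0.01 over all genes. With each library omitted in turn, the median ran from 0.54 to 0.79 and the count of higher genes from 25 to 35, with 0 lower throughout. The lowest count came without UIRI replicate 1, where 500 of all genes were higher at that line. The highest came without UIRI replicate 3, where 2629 of all genes were. limma called 0 of the 42 after adjustment, or 28 without UIRI replicate 3, where 5.02% of all genes were called. DESeq2 called 16, all of them higher, against 1.14% of the genes with an adjusted p. Slc34a1, the phosphate cotransporter of the brush border, had a log2 fold change of 0.53 (adjusted p 0.0127 by DESeq2). Lrp2, which encodes the endocytic receptor megalin, had one of 0.78 (adjusted p 0.00751 by DESeq2), and Slc22a6, the organic anion transporter OAT1, one of 0.98 (adjusted p 0.0194 by DESeq2). Pck1, the rate-limiting enzyme of gluconeogenesis, had the largest value of the list among genes whose groups did not overlap, 1.04. Fbp1, a second enzyme of gluconeogenesis, read 890.5, 909.9 and 1988 with vehicle against 2126, 1844 and 2158 with BA, so that UIRI replicate 3 lay among the treated libraries.

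**Figure D2:**
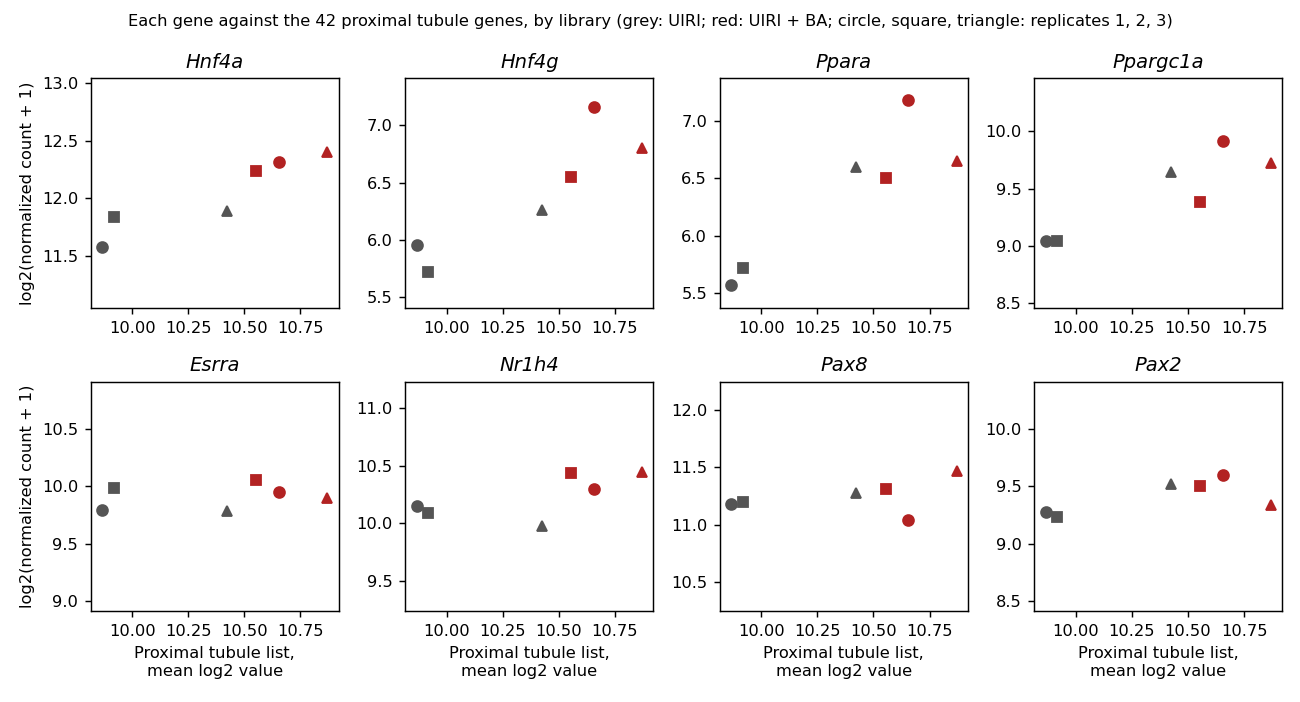
Log2 normalized count of each of the 8 genes (vertical axis, a span of 2 log2 units in every panel) against the mean log2 value of the 42 proximal tubule genes (horizontal axis) in each library. Hnf4a, Hnf4g, Ppara and Ppargc1a climb with the list from UIRI replicates 1 and 2 through UIRI replicate 3 toward the UIRI + BA libraries, while Esrra, Pax8 and Pax2 stay nearly level.

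Each gene was therefore set against the proximal tubule list within its own library, as its log2 value minus the mean log2 value of the 42 genes. Hnf4a differed by -0.07 between the groups on this measure (UIRI 1.71, 1.92 and 1.47, UIRI + BA 1.66, 1.68 and 1.54, exact permutation p = 0.7). No difference beyond that of the list was detected for Hnf4a, and the exact test cannot go below 0.1 here. Many genes of the list are known targets of HNF4A, so subtracting the list also removes a change that Hnf4a shares with its targets. The measure therefore cannot separate cell mixture from such a change. Hnf4g differed by 0.23 (exact permutation p = 0.4) and Ppara by 0.19 (exact permutation p = 0.6), both with overlapping groups. The groups of Pax8 and Pax2 did not overlap on this scale. Relative to the list, Pax8 was 1.31, 1.28 and 0.85 with vehicle against 0.39, 0.76 and 0.60 with BA, a difference of -0.57. Pax2 differed by -0.49 (both with an exact permutation p of 0.1, the smallest possible, and an adjusted p of 0.25 over the 10 genes set against the list). The groups of Esrra (-0.51), Nr1h4 (-0.30) and Ppargc1a (-0.20) overlapped. Since the list itself was higher with BA, a negative value here says that a gene differed less than the list did, not that it was lower.

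Ppara, the receptor of the fatty acid oxidation program, had normalized counts of 46.4, 51.7 and 95.8 with vehicle against 144.1, 89.4 and 99.1 with BA, on 41 to 175 reads per library. UIRI replicate 3 exceeded UIRI + BA replicate 2, so the groups overlapped. The means were 64.7 ± 27.1 (SD, n = 3) and 110.9 ± 29.2 (SD, n = 3), a log2 fold change of 0.81 (SE 0.29, unadjusted p = 0.0203, adjusted p = 0.425 by limma). Without UIRI replicate 3 the log2 fold change was 1.13 and the adjusted p 0.0322 by limma, against 0.359 to 0.9995 under the other alternatives of that test. The other 2 members of the receptor family had overlapping groups. Ppard, which is expressed in most tissues, had a log2 fold change of -0.01 (SE 0.14) and Pparg, best known from adipocytes, one of -0.22 (SE 0.16). The log2 ratio of Ppara to Pparg differed by 1.03 between the groups, but its libraries overlapped (exact permutation p = 0.3, adjusted p = 0.45 over 6 pairs). Rxra, the retinoid X receptor with which PPARA pairs, had a log2 fold change of 0.10 (SE 0.09).

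Of 40 target genes of PPARA, 38 were in the table, and 15 of these had an unadjusted p below 0.05, all of them higher with BA. Over all genes, 5.67% were higher at that line. Their groups did not overlap for 15, all higher (7.45% of all genes were higher without overlap). The median log2 fold change of the list was 0.19, and DESeq2 called 5, all higher, where 1.14% of the genes with an adjusted p were called as higher. Without UIRI + BA replicate 3 the 15 genes were 9, where 778 of all genes were higher at that line, against 1087 with all libraries. Without UIRI replicate 3 there were 18 higher and 2 lower, 5 of them called by limma. Over all genes, 25.2% were below that line and 5.02% were called without UIRI replicate 3. Ehhadh, the bifunctional enzyme of peroxisomal oxidation, read 785.1, 804.2 and 757.4 with vehicle against 1090, 1070 and 1264 with BA, a log2 difference of 0.54 (adjusted p 0.225 by limma and 0.000940 by DESeq2). UIRI replicate 3 sat with its own group for this gene. Pdk4, the kinase that spares pyruvate when fat is burned, had a log2 fold change of 0.69 (adjusted p 0.0144 by DESeq2). Cpt1a, which admits fatty acids to mitochondria, had one of 0.22 without overlap and without a call by either tool. Acadm, a mitochondrial dehydrogenase, had one of 0.18 with overlapping groups. The largest value in the list belonged to Cyp4a10, a fatty acid omega-hydroxylase, at 1.49, although its reads may be shared with close copies in the Cyp4a cluster.

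Ppargc1a, the coactivator PGC-1A, had normalized counts of 527.9, 525.3 and 801.7 with vehicle against 964.6, 666.6 and 844.2 with BA. UIRI replicate 3 lay above UIRI + BA replicate 2, and the other 2 UIRI libraries lay below all treated ones. The log2 fold change was 0.43 (SE 0.18, unadjusted p = 0.0449, adjusted p = 0.484 by limma), and 0.63 without UIRI replicate 3 (adjusted p 0.0376 by limma). Under the other alternatives of that test its adjusted p lay between 0.359 and 0.9995. Ppargc1b, the related coactivator, was scarce and had a log2 fold change of 0.04 (SE 0.27). Esrra, the receptor through which PGC-1A acts on respiratory genes, read 885.9, 1013 and 883.9 with vehicle against 985.9, 1063 and 954.8 with BA. These groups overlapped, with a log2 fold change of 0.11 and a 95% interval from -0.09 to 0.31 in limma's fit. Its relative Esrrg, a receptor of oxidative tissues that is high in kidney, had a log2 fold change of 0.37 (SE 0.12) with no overlap (adjusted p 0.388 by limma). Esrrb, the third receptor of the family, had one of 0.24 (SE 0.22).

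The mitochondrial genes that ERRA and PGC-1A are known to drive passed the test about as often as genes in general. Of 44 genes listed, 43 were in the table, with 4 higher and 1 lower at an unadjusted p below 0.05, a share of the list near the 10.3% of all genes. The count of 4 was 10 without UIRI replicate 3, where limma called 3 genes of the list. Over all genes, 25.2% were then below that line in either direction and 5.02% were called. The count was 1 without UIRI replicate 1 or UIRI + BA replicate 2, and 0 without UIRI replicate 2 or UIRI + BA replicate 3. Over all genes, 500, 1054, 711 and 778 were higher at that line in these fits, in the same order, against 1087 with all libraries. The median log2 fold change was 0.06, and DESeq2 called 0, with limma giving 5 at an unadjusted p below 0.05. The fitted difference was above 0 for 34 of the 43, against 48.9% of all genes. Without overlap, 8 were higher and 1 was lower, against 7.45% and 6.96% of all genes. Cs, the citrate synthase that opens the citric acid cycle, had a log2 fold change of 0.07, and Cycs, cytochrome c, one of 0.12. Cox5b, a subunit of cytochrome c oxidase, had one of -0.02, and Tfam, the factor that maintains mitochondrial DNA, one of 0.06. Idh3a, a subunit of isocitrate dehydrogenase, had one of 0.20 and Atp5b, the beta subunit of ATP synthase, one of 0.23, both without overlap. In the other direction, Perm1, a regulator that PGC-1 coactivators induce in muscle, read 164.3, 157.5 and 115.0 with vehicle against 94.0, 98.0 and 88.7 with BA. Its log2 fold change was -0.62 (SE 0.17), with an adjusted p of 0.306 by limma and 0.153 by DESeq2.

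**Figure D3:**
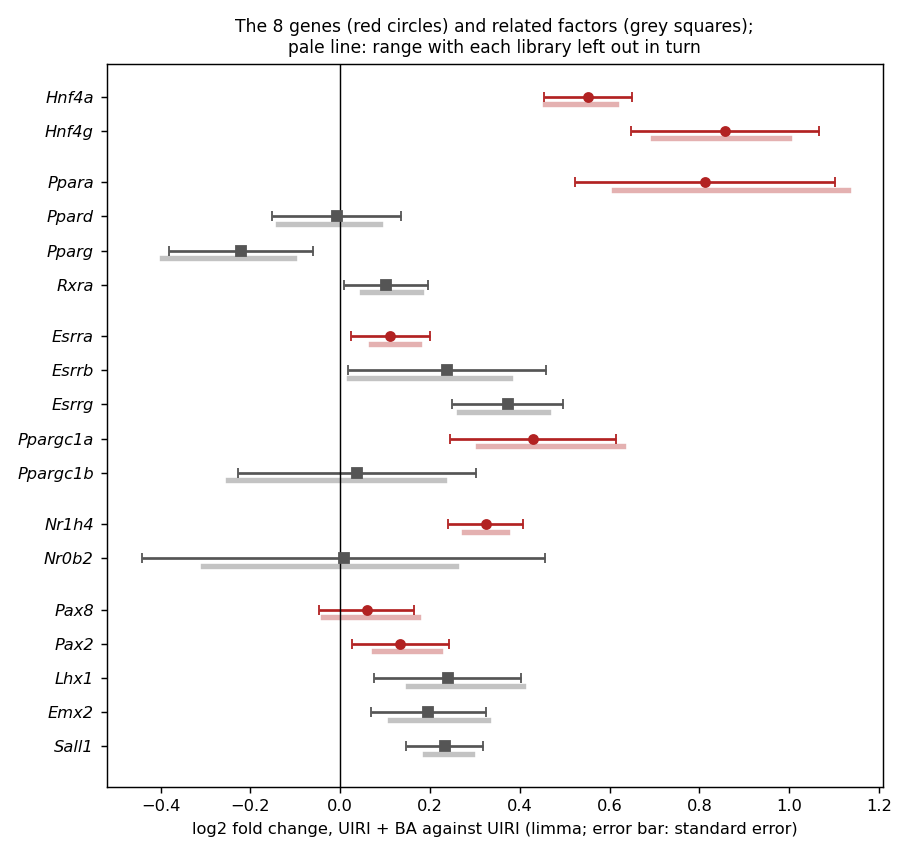
Log2 fold change of UIRI + BA against UIRI by limma for the 8 genes (red circles) and related factors (grey squares), with the standard error as bars and the range over fits without 1 library as pale lines. Of the 8 genes, the range of Pax8 crosses 0, and the ranges of the other 7 lie above 0.

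Nr1h4, the bile acid receptor FXR, was the second most abundant of the 8 genes per length and was measured precisely. Its normalized counts were 1139, 1087 and 1005 with vehicle against 1260, 1390 and 1393 with BA. The groups did not overlap, and UIRI replicate 3 was the lowest library here, unlike for Ppara and Ppargc1a. The means were 1077 ± 67.4 (SD, n = 3) and 1348 ± 75.9 (SD, n = 3), a log2 fold change of 0.32 (SE 0.08, unadjusted p = 0.00351). The adjusted p was 0.291 by limma and 0.101 by DESeq2, so neither tool called it. With 1 library omitted the log2 fold change of Nr1h4 ran from 0.28 to 0.37.

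Of 16 FXR targets and bile acid genes, 12 were in the table, with a median log2 fold change of 0.29. At an unadjusted p below 0.05, 4 were higher and 1 was lower, against 5.67% and 4.61% of all genes. The list pools FXR targets with other bile acid genes, so its counts and median are not a measure of FXR activity. Without UIRI replicate 1 the counts were 2 and 0, and without UIRI replicate 3 they were 5 and 1, with 4 called by limma. Over all genes, 4.21% and 25.2% were then below that line, and 5.02% were called without UIRI replicate 3. Slc10a2, the sodium-dependent bile acid transporter of the brush border, read 602.7, 704.1 and 923.9 with vehicle against 1730, 1220 and 1827 with BA. Its log2 fold change was 1.10 (SE 0.18), with an adjusted p of 0.225 by limma and 5.81e-06 by DESeq2. Slc51a, a subunit of the organic solute transporter that FXR induces, had a log2 fold change of 0.45 with overlapping groups, and its partner Slc51b one of 0.42. Abcc3, an efflux pump, had one of -0.30 without overlap. Nr0b2, the classical FXR target that encodes SHP in liver, was close to the limit of detection with normalized counts of 4.17 to 10.02, and no difference was detectable at this depth. Abcb11, Fgf15, Fabp6 and Cyp7a1, FXR-linked genes best known from liver and gut, were not in the table.

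Pax8, the paired-box factor of adult tubules, read 2311, 2346 and 2475 with vehicle against 2108, 2543 and 2829 with BA. UIRI + BA replicates held both the lowest and the highest value, so the groups overlapped. The log2 fold change was 0.06 (SE 0.11), with a 95% interval from -0.18 to 0.30 in limma's fit, and it turned to -0.04 without UIRI + BA replicate 3. Pax2, which is high in the developing nephron and the collecting duct, read 618.6, 602.9 and 735.5 with vehicle against 772.9, 723.7 and 648.0 with BA. Its log2 fold change was 0.13 (SE 0.11), with a 95% interval from -0.11 to 0.38. The log2 ratio of Pax2 to Pax8 differed by 0.08 between the groups with overlap (exact permutation p = 0.8), and this sign turned without UIRI + BA replicate 1.

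Other factors of the kidney lineage went both ways. Of 39 listed, 38 were in the table, with a median log2 fold change of 0.00. At an unadjusted p below 0.05, 4 were higher and 4 lower, against 5.67% and 4.61% of all genes. Without UIRI replicate 3 the counts were 11 and 4, with 2 called by limma, against 5.02% of all genes called. Without UIRI replicate 1 they were 1 and 0, and without UIRI + BA replicate 1 they were 1 and 1. Over all genes, 25.2%, 4.21% and 6.62% were below that line in these 3 fits, in the same order. Sall1, a zinc-finger factor of nephron progenitors, had a log2 fold change of 0.23 without overlap. Emx2, a homeobox gene of the ureteric epithelium, had one of 0.20, and Lhx1, a target of PAX factors in the embryonic kidney, one of 0.24, both with overlap. Wt1, the podocyte factor, had one of -0.09. Among 37 nuclear receptor partners and coregulators in the table, the median was 0.10. At an unadjusted p below 0.05, 5 were higher and 1 was lower, against the same 5.67% and 4.61% of all genes. These counts were 11 and 3 without UIRI replicate 3, with 1 called by limma, where 25.2% of all genes were below that line and 5.02% called. Without UIRI replicate 1 the count of lower genes was 0, and without UIRI + BA replicate 3 it was 2. Over all genes, 808 and 1612 were then below that line in either direction, against 1971 with all libraries. Vdr, the vitamin D receptor, had the largest value without overlap at 0.53 (adjusted p 0.00507 by DESeq2), and Thra, a thyroid hormone receptor, was the one without overlap in the other direction at -0.22.

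**Figure D4:**
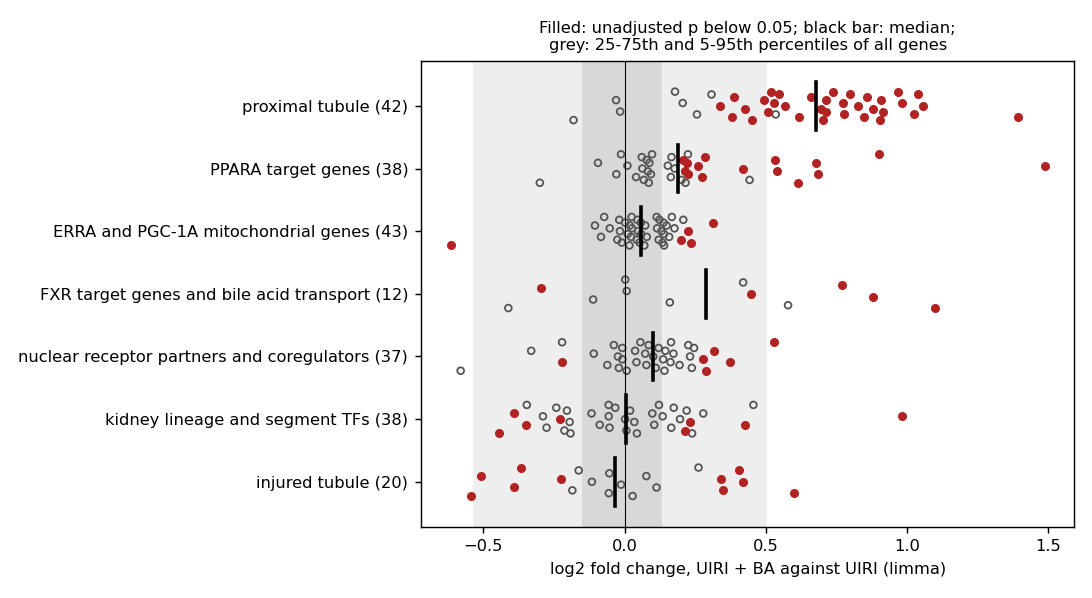
Log2 fold change of UIRI + BA against UIRI for every gene of 7 lists, with filled points at an unadjusted p below 0.05, the median of each list as a black bar and percentiles of all genes as grey bands. The proximal tubule list has its median at 0.68, the PPARA targets at 0.19 and the mitochondrial genes at 0.06.

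To compare the genes with each other, normalized counts were divided by the length of the merged exons in GENCODE M21 (2.30 kb for Nr1h4 to 6.59 kb for Ppargc1a). In UIRI, Hnf4a stood highest at 725 ± 81.9 per kb (SD, n = 3), followed by Nr1h4 at 468 ± 29.3, Pax8 at 392 ± 14.3, Esrra at 211 ± 16.9, Pax2 at 121 ± 13.4, Ppargc1a at 93.8 ± 24.1, Hnf4g at 23.9 ± 4.56 and Ppara at 16.9 ± 7.07. The order was the same in UIRI + BA, from Hnf4a at 1059 ± 63.3 per kb to Ppara at 28.9 ± 7.60. In both groups the libraries of Pax2 and Ppargc1a overlapped, and so did those of Hnf4g and Ppara, so these neighbours cannot be ordered. Hnf4a exceeded Hnf4g 27.2 to 38.5 times per kb in UIRI libraries and 19.6 to 28.3 times in UIRI + BA libraries. Pparg, although better known from fat, exceeded Ppara per kb in every library, 2.15 to 6.11 times in UIRI and 1.54 to 2.44 times in UIRI + BA. Of 10 adipocyte markers, 3 were in the table, Fabp4 with group means of 1440 and 1512 normalized counts, Lipe with 227 and 225 and Plin4 with 26.4 and 34.7, and the other 7, Adipoq, Plin1 and Lep among them, were not.

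**Figure D5:**
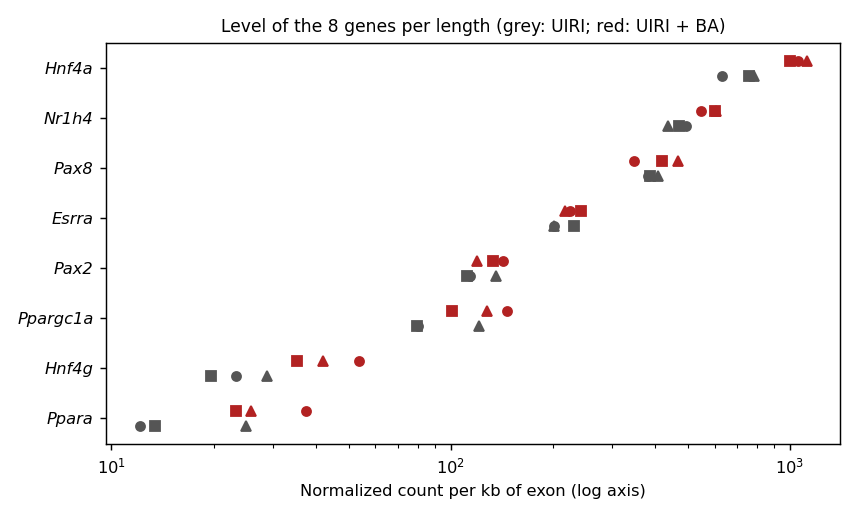
Normalized count per kb of merged exon (log axis) of the 8 genes in each UIRI library (grey) and UIRI + BA library (red). Hnf4a, Nr1h4 and Pax8 lie between 348 and 1125 per kb, and Hnf4g and Ppara lie below 54 per kb.

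In GENCODE M21 on build GRCm38, matched by symbol alone, Hnf4a lies on chromosome 2 from 163506808 to 163572910 and Pax8 on the same chromosome from 24420560 to 24475599. Hnf4g lies on chromosome 3 from 3508030 to 3658052, Ppargc1a on chromosome 5 from 51454250 to 51567726 and Nr1h4 on chromosome 10 from 89454234 to 89533585. Ppara lies on chromosome 15 from 85734983 to 85802819. Esrra and Pax2 share chromosome 19, from 6910977 to 6921813 and from 44756045 to 44837871. The 8 genes are thus not neighbours, and the closest pair on any chromosome is many megabases apart.

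The genes whose log2 values followed each member most closely over the 6 libraries were sought among the up to 12648 genes whose mean normalized count reached 100. With 6 libraries high values are common: between 61 genes (Pax8) and 1250 genes (Ppargc1a) reached a Pearson r of 0.9. For Hnf4a the closest were Pde8a, Cpn1 and Cyp4a31, with r of 0.998, 0.998 and 0.997. For Hnf4g they were Shmt1, Cyp4a12b and Pdia6 with r of 0.991, 0.990 and 0.990. Ppargc1a was closest to Clmn, Dnttip2 and Mia2 (r of 0.998, 0.998 and 0.997), and Ppara to Kdm5d, Mcm6 and Slc31a1 (r of 0.998, 0.997 and 0.996). Nr1h4 was closest to Zfp367, Coq5 and Acsf3 (r of 0.991, 0.986 and 0.985), and Esrra to Cspg4, Lama3 and Rgs5 (r of 0.992, 0.992 and 0.980). Pax8 was closest to Mpi, Ttc39c and Pgm1 (r of 0.995, 0.987 and 0.977), and Pax2 to Zfp953, Nt5dc3 and Bicd2 (r of 0.998, 0.992 and 0.991). No gene was named for more than 1 member. Cyp4a31 and Cyp4a12b have close copies that may share their reads.

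Markers of other cells moved beside these genes. All 12 fibroblast and myofibroblast genes were lower with BA, 7 of them at an unadjusted p below 0.05, where 4.61% of all genes were lower. Their mean log2 value was 12.05 to 12.28 in UIRI and 11.64 to 12.07 in UIRI + BA. All 12 macrophage genes were lower as well, 2 of them at that line, with means of 12.13 to 12.56 and 12.05 to 12.21. Without UIRI replicate 3, all 12 macrophage genes had an unadjusted p below 0.05, and limma called 7 of them and 3 of the fibroblast genes. Over all genes, 25.2% were then below that line and 5.02% were called. Both lists overlapped between the groups as means, and no marker of either was missing from the table. The urothelium list varied most, from 4.75 to 6.42 in UIRI and 2.99 to 5.80 in UIRI + BA. Thick limb, distal convoluted tubule, principal and intercalated cell lists overlapped between the groups. Among their 39 genes, 2 were higher and 1 lower at an unadjusted p below 0.05, against 10.3% of all genes in either direction. The part of the cell mixture in the differences of the 8 genes was not tested. The comparison with the proximal tubule list cannot measure it, since that list holds known targets of HNF4A.

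Injured tubule genes went in both directions, 5 higher and 5 lower of 20 at an unadjusted p below 0.05, with a median of -0.03. Over all genes, 5.67% were higher and 4.61% lower at that line. DESeq2 called 2 of the 20 as higher and 3 as lower, against 1.49% of the genes with an adjusted p. The higher count was 3 without UIRI + BA replicate 2, and the lower count 3 without UIRI + BA replicate 3. Over all genes, 1860 and 1612 were then below that line in either direction, against 1971 with all libraries. limma called 5 of the 20 when UIRI replicate 3 was left out, against 5.02% of all genes. Lcn2, which encodes the injury marker NGAL, read 5260, 4687 and 4507 with vehicle against 3137, 3469 and 3539 with BA, a log2 difference of -0.51 (adjusted p 0.000765 by DESeq2). Krt19, a keratin of injured and ductal epithelium, had one of -0.54 (adjusted p 0.0180 by DESeq2). Havcr1, which encodes the proximal tubule injury marker KIM-1, was instead higher, with a log2 fold change of 0.42 (adjusted p 0.0127 by DESeq2). Itgb8, an integrin subunit, had one of 0.60 (adjusted p 0.00829 by DESeq2) and Vcam1, an adhesion molecule of unrepaired proximal tubule cells, one of 0.35 without overlap (adjusted p 0.0592 by DESeq2). Sox9, a factor of regenerating tubule cells, had one of 0.26 with overlapping groups. With all 6 libraries, none of these genes had an adjusted p below 0.05 by limma, in which no gene of the table did. By RT-qPCR of kidney tissue from this UIRI model, the paper reported less mRNA of both KIM-1 and NGAL with BA. Havcr1 thus differed here in the opposite direction to that measurement, and the reason was not tested.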

How the data were processed

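RNA of renal cortex was sequenced in 3 UIRI and 3 UIRI + BA libraries. By their methods, the authors used HISAT2 for alignment, FeatureCounts for counting per gene and DESeq2 for testing, after read filtering. The build and annotation are not given in the sources used here. The deposited signal is the read count of a gene over the size factor of its library, since 100% of the values were whole multiples of 1 read (tolerance 0.001). The authors' log2 fold change and p-value columns and their enrichment tables were deposited too and were not used. Genes with fewer than 10 reads in all were absent from the deposited table.

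limma 3.58.1 (R 4.3.3) was fitted on log2 of the value plus 1 over all 19176 rows, with an intensity trend, no covariate and Benjamini-Hochberg adjustment. DESeq2 1.42.0 and edgeR 4.0.16 (quasi-likelihood) were run on the recovered reads. Ratios between genes and single values were compared with exact two-sided permutation tests. limma, DESeq2 and edgeR were tested on simulated data. The study calls the replicates independent. Members and lists were chosen with earlier results of these data known, so counts over them are descriptions. Named genes are the 8 members, genes fixed by name for each list, the largest difference in each direction per list (unadjusted p below 0.05, no overlap) and the 3 closest genes by Pearson r. Start sites come from RefSeq (GRCm38.p6). Protein sequences were not used here, and some genes that the rule names and the search for promoter motifs are not reported here.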

Additional observations from a re-analysis of the deposited data

How the results depend on the processing

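Alternatives were another pseudocount, a filter on low values, quantile and upper quartile scaling, the replicate number as a block, DESeq2, edgeR and the omission of each library. The direction of the 8 members held under all of them except for Pax8. DESeq2 called 1 member and 213 genes in all, with Hnf4a at 0.55. DESeq2 without 1 library, an alternative chosen after seeing the data, called 1 to 4 members, with Hnf4a at 0.46, 0.58 and 0.61 without UIRI replicates 1, 2 and 3 and at 0.55, 0.59 and 0.50 without UIRI + BA replicates 1, 2 and 3. Without UIRI replicate 3 it gave 1.02 for Hnf4g, 1.17 for Ppara and 0.65 for Ppargc1a, all called. In that fit DESeq2 called 1618 genes in all, against 13 to 120 when any other library was left out. Without UIRI + BA replicate 3 it gave -0.030 for Pax8. edgeR gave the FXR list a median of 0.45, over the genes that passed its filter. Upper quartile scaling left 925 of 1990 genes with an unadjusted p below 0.05 as higher with BA, against 1087 of 1971.

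Replicate numbers were not taken as pairs (the deviations of same-numbered libraries correlated at -0.24, 0.30 and 0.16), and with the replicate block limma called 6 genes and 0 members.

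In limma with each library left out, the members with an unadjusted p below 0.05 were 3 to 6, those called 0 to 4 and those without overlap 3 to 6. Over all genes, 0 to 962 were called and 808 to 4838 had an unadjusted p below 0.05, the highest of each without UIRI replicate 3. Log2 fold changes ranged from 0.46 to 0.61 for Hnf4a, 0.70 to 1.00 for Hnf4g, 0.61 to 1.13 for Ppara, 0.31 to 0.63 for Ppargc1a and -0.038 to 0.17 for Pax8. The list medians ranged from 0.058 to 0.14 for nuclear receptor partners and from -0.064 to 0.075 for injured tubule. The log2 ratio of Pax2 to Pax8 ranged from -0.10 to 0.24. Relative to the proximal tubule list, Hnf4a ranged from -0.19 to 0.037 and Ppara from -0.034 to 0.34. The causes were not tested. Depth limits Ppara and Hnf4g, with 41 and 46 reads in their lowest libraries.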
